A study of Mus musculus with 10 samples.

Results

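The NF-kB family genes described here are the 5 Rel subunits Rela, Relb, Rel, Nfkb1 and Nfkb2 and 5 genes whose products hold the pathway back or act on it from within, Nfkbia, Nfkbib, Nfkbie, Tnfaip3 and Bcl3. Members were the rows of the expression table whose gene symbol equalled a listed name, and each of the 10 had 1 row, out of 14248 gene symbols in all. The rule itself uses gene names and no measured value, though the family was picked with earlier results of these data known. NIH3T3 cells are fibroblasts, a line long kept in culture that was derived from mouse embryos. The groups were 4 independent clones of NIH3T3 stably overexpressing FOXP2-CPED1, which the series calls a FOXP2 arrangement, 4 independent clones stably overexpressing FOXP2, which encodes a forkhead transcription factor, 1 culture stably carrying the vector, and the parental cells. The vector and parental libraries together formed the control, with 2 libraries. Each clone was measured in 1 RNA-sequencing library. The labels do not call the vector cells a clone, so the derivation of a clone and the construct it carries cannot be told apart. The expression system of the constructs is not described in the labels.

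NF-kB is a set of dimers of Rel proteins that wait in the cytoplasm bound to inhibitors of the IkB family. Signals from cytokine and innate immune receptors activate the IkB kinase, which marks IkB for destruction and frees the dimer to enter the nucleus. Several of the genes it switches on encode its own inhibitors and subunits, which makes the pathway a textbook negative feedback loop. In fibroblasts the pathway is known for driving cytokine, chemokine and adhesion genes.

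Promoter sequences are shown for 3 of the inhibitors, because binding sites for NF-kB in the promoters of its own inhibitors are what closes that loop. RefSeq promoter windows (GRCm38.p6, from 250 bases before to 50 bases after an annotated start) matched 8 of the 10 members in 11 windows. On either strand, with overlapping matches allowed, 6 of the 8 members (Nfkb2, Rel, Nfkbia, Nfkbie, Tnfaip3 and Bcl3) held the classical kB consensus in a window, against 9.55% of 27025 genes. The 130 bases before the annotated start, all outside annotated exons, read as follows 5′ to 3′ on the strand of the gene, with capitals marking matches to the kB consensus. The Nfkbia window lies at chr12:55492648-55492777 on the minus strand, the Tnfaip3 window shown at chr10:19015411-19015540 on the minus strand, and the Nfkbie window at chr17:45555570-45555699 on the plus strand. Another Tnfaip3 window, at chr10:19011964-19012093, also lies outside annotated exons but holds no match, and is not printed.
Nfkbia: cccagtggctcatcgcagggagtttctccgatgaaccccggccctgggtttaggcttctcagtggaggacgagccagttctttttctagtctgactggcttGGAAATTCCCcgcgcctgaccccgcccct
Tnfaip3: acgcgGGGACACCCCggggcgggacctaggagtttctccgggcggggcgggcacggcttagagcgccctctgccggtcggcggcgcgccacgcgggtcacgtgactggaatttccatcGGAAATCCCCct
Nfkbie: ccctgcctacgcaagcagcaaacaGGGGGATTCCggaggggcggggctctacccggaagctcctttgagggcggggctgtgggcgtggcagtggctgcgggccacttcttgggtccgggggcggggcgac
Counted from the annotated start, the first base of the Nfkbia match is at position -29, that of the Nfkbie match at -106, and those of the Tnfaip3 matches at -125 and -12. Among the subunits, Rel carries GGGAAATCCC at -92 and Nfkb2 carries GGGAATTCCC at -39 in the most upstream of its windows, each overlapped by another match that starts 1 base later. A match describes the letters of the window and does not show that a site is bound. The expression values come from mm9, so only gene names link them to these windows.

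Levels are given in RPKM, reads scaled by transcript length and by sequencing depth, as the authors deposited them. The libraries were alike in most respects. Their relative depth was estimated from ratios among rows under 0.3 RPKM, with large ratios left out, so a large difference could not show. The estimates ran from 0.913 to 1.32 of the parental library. Between 12696 and 13172 rows reached 1 RPKM, and the Spearman correlation between libraries over rows was 0.925 to 0.982. The absolute depth is unknown, so no counting interval was computed. In FOXP2-CPED1 clone 3, FOXP2 clone 2 and FOXP2 clone 4 the 2 mitochondrially encoded rows were listed at 0. Values that change direction without these 3 libraries are given in the closing section. The row of Foxp2 ran from 0.0674 to 0.330 RPKM in the FOXP2-CPED1 clones and from 0.145 to 1.02 RPKM in the FOXP2 clones. In the control it ran from 0.0785 to 0.0798 RPKM. It did not separate every FOXP2-CPED1 clone from the control, and it was low in the FOXP2 clones too. The row of Cped1 ran from 6.69 to 25.4 RPKM in the FOXP2-CPED1 clones and from 6.43 to 31.0 RPKM in the FOXP2 clones. In the control it ran from 24.2 to 27.0 RPKM, so no FOXP2-CPED1 clone lay above both controls. These 2 rows therefore do not establish the overexpression that the labels state, for either construct. Of 10 fibroblast markers, 8 had a row of their own, at 23.4 to 3140 RPKM. Of 13 blood and immune cell markers, only Lyz2 did, at 13.6 to 33.7 RPKM, and of 8 epithelial and endothelial markers only Cdh1 and Cdh5 did, at no more than 2.37 RPKM. A further 3 blood and immune cell markers and 1 fibroblast marker were found only in rows joining several genes, whose values were not used.

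The whole family had a level above 0 in every library, over a wide range. The lowest was Tnfaip3 in FOXP2 clone 2, at 0.810 RPKM. Nfkbia, Rela and Nfkb2 were the most abundant members in the control, at 50.7 to 69.3 RPKM, and Rel and Nfkbie the least, at 1.88 to 2.58 RPKM. In the clones the main pattern was a lower Nfkbia, which encodes IkBa, the inhibitor that binds RelA-containing dimers, with a lower Relb and Rel. Rela, Nfkb1, Nfkb2 and Tnfaip3 were each below both controls in 7 of 8 clones. Nfkbib, Nfkbie and Bcl3 were not lower as a rule. Differences were tested with limma, a linear model fitted to log2(RPKM + 1) of 12842 rows, with Benjamini-Hochberg adjustment over all rows and 0.05 as the threshold. None of the 10 members passed it in any comparison. The values below therefore describe 8 clones and 2 control cultures, and a member's separation is read against how often all rows separated.

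**Figure D1:**
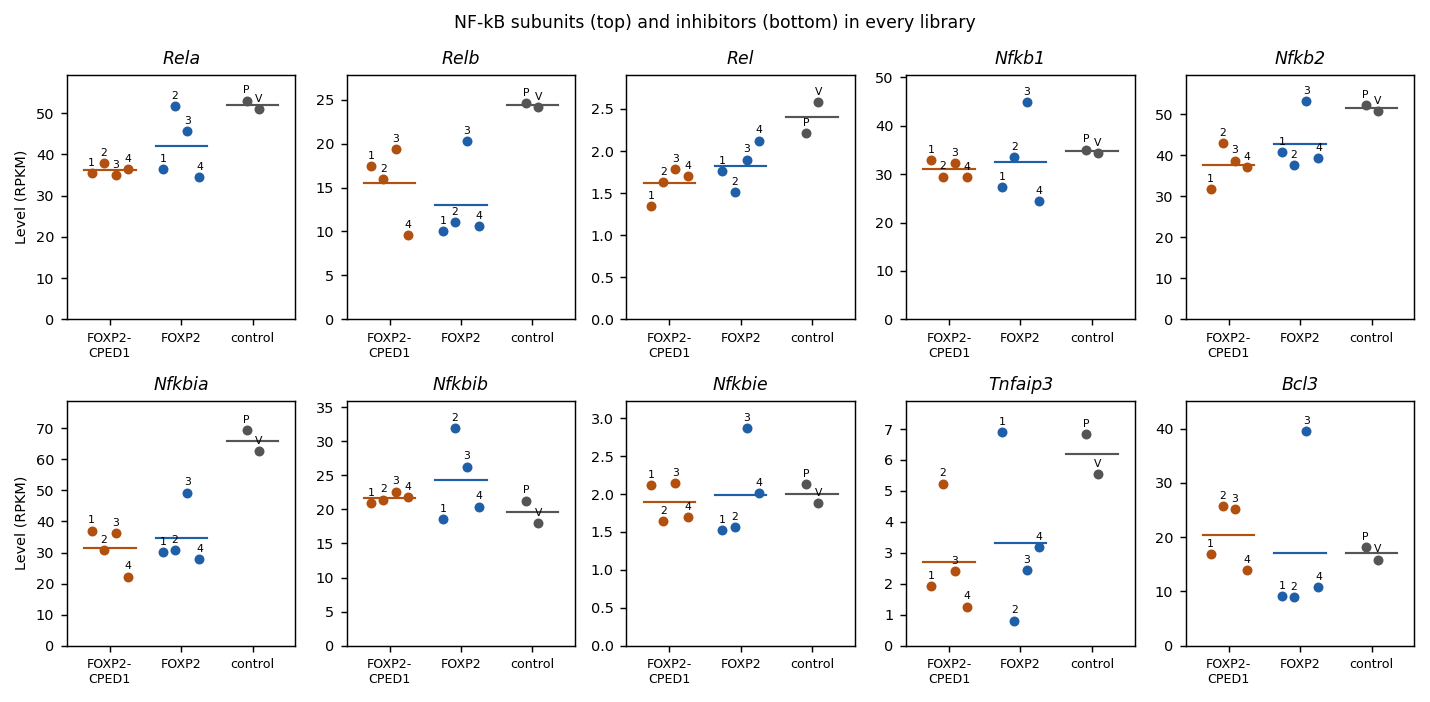
Level in RPKM (vertical axes, each from 0) of the 5 subunits (top) and 5 inhibitors (bottom) in each library, with a point per library, numbers naming the clones, V the vector and P the parental cells, and a bar at the mean of each group. All 8 clones lie below both control cultures for Relb, Rel and Nfkbia, and FOXP2 clone 3 lies above the other 7 clones for Nfkb1, Nfkb2, Relb, Nfkbia, Nfkbie and Bcl3.

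Rela encodes p65, the activating subunit of the most common dimer. It stood at 35.5, 37.9, 34.9 and 36.4 RPKM in FOXP2-CPED1 clones 1 to 4, at 36.5, 51.8, 45.6 and 34.5 RPKM in FOXP2 clones 1 to 4, and at 51.0 RPKM in the vector and 53.1 RPKM in the parental cells. The FOXP2-CPED1 clones lay close together and below both controls, while FOXP2 clone 2 lay between the 2 controls. The log2 fold change was -0.51 ± 0.17 (SE) for FOXP2-CPED1 against control, with a limma adjusted p of 0.442, and -0.32 ± 0.17 for FOXP2 against control, with a limma adjusted p of 0.677 (-0.48 with quality weights).

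Relb encodes the subunit that pairs with p52 in the noncanonical arm of the pathway. It had 17.4, 15.9, 19.4 and 9.57 RPKM in the FOXP2-CPED1 clones, 10.04, 11.1, 20.3 and 10.6 RPKM in the FOXP2 clones, 24.1 RPKM in the vector and 24.6 RPKM in the parental cells. Every clone was below both controls. FOXP2-CPED1 clone 4 was the lowest of its construct, and FOXP2 clone 3 stood well above the other FOXP2 clones. The log2 fold change was -0.66 ± 0.31 for FOXP2-CPED1 and -0.91 ± 0.31 for FOXP2 against control, with limma adjusted p of 0.702 and 0.380. Over all 8 clones the exact permutation test gave p = 0.0222, the smallest that 45 arrangements allow, unadjusted over the 10 members.

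Rel encodes c-Rel, a subunit used mostly by lymphoid cells, and was scarce. It had 1.34, 1.64, 1.79 and 1.71 RPKM in the FOXP2-CPED1 clones, 1.76, 1.51, 1.90 and 2.12 RPKM in the FOXP2 clones, 2.58 RPKM in the vector and 2.22 RPKM in the parental cells. All clones were below both controls, though FOXP2 clone 4 was close to the parental value. On the log2(RPKM + 1) scale, which understates changes at such low levels, the differences were -0.38 ± 0.17 for FOXP2-CPED1 and -0.27 ± 0.17 for FOXP2 against control (limma adjusted p = 0.684 and 0.737).

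Nfkb1 encodes p105, the precursor of p50, the usual partner of RelA. It stood at 32.8, 29.5, 32.3 and 29.4 RPKM in the FOXP2-CPED1 clones, at 27.4, 33.6, 45.0 and 24.4 RPKM in the FOXP2 clones, and at 34.4 RPKM in the vector and 35.1 RPKM in the parental cells. FOXP2 clone 3 was above both controls and the other 7 clones were below them. Group means were 31.0 ± 1.83 RPKM in FOXP2-CPED1 clones, 32.6 ± 9.10 RPKM in FOXP2 clones (SD, n = 4 each) and 34.7 ± 0.492 RPKM in the control (n = 2), so the spread between FOXP2 clones was larger than any difference between groups.

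Nfkb2 encodes p100, which is processed to p52 and also acts as an inhibitor that holds RelB. It had 31.7, 43.0, 38.7 and 37.1 RPKM in the FOXP2-CPED1 clones, 40.8, 37.5, 53.2 and 39.3 RPKM in the FOXP2 clones, 50.7 RPKM in the vector and 52.3 RPKM in the parental cells. Only FOXP2 clone 3 reached the level of the controls. The log2 fold change was -0.45 ± 0.17 for FOXP2-CPED1 and -0.28 ± 0.17 for FOXP2 against control (limma adjusted p = 0.551 and 0.727). The FOXP2 value was -0.14 without the libraries with mitochondrial rows at 0.

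The 5 subunits kept a similar order of abundance while their summed level was lower in most clones. The sum was 122.0 ± 6.70 RPKM in FOXP2-CPED1 clones, 132.2 ± 24.8 RPKM in FOXP2 clones (SD, n = 4 each) and 165.0 ± 3.07 RPKM in the control (SD, n = 2). FOXP2 clone 3, at 165.9 RPKM, lay between the controls, and the other 7 clones ran from 110.9 to 135.5 RPKM. Nfkb1 made up 23.0 to 27.7% of the sum in the FOXP2-CPED1 clones and 22.0 to 27.1% in the FOXP2 clones, against 21.1% in the vector and 21.0% in the parental cells. The share of Relb was 8.39 to 15.2% in the FOXP2-CPED1 clones and 8.18 to 12.2% in the FOXP2 clones, against 14.8% in the vector and 14.7% in the parental cells. In these bulk libraries, fewer cells expressing a gene and less RNA per cell cannot be told apart.

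Nfkbia showed the widest gap among the members whose groups separated. It had 37.0, 30.9, 36.2 and 22.3 RPKM in the FOXP2-CPED1 clones, 30.2, 30.8, 49.3 and 27.9 RPKM in the FOXP2 clones, 62.6 RPKM in the vector and 69.3 RPKM in the parental cells. All 8 clones were below both controls, with FOXP2-CPED1 clone 4 the lowest and FOXP2 clone 3 the highest of them. Means were 31.6 ± 6.80 RPKM in FOXP2-CPED1 clones, 34.6 ± 9.91 RPKM in FOXP2 clones (SD, n = 4 each) and 66.0 ± 4.74 RPKM in the control (SD, n = 2).

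The log2 fold change of Nfkbia was -1.06 ± 0.26 for FOXP2-CPED1 against control, with a 95% interval from -1.63 to -0.49 and a limma adjusted p of 0.190. For FOXP2 against control it was -0.95 ± 0.26, from -1.52 to -0.38, with a limma adjusted p of 0.238. With all 8 clones the value was -1.01 ± 0.23, the limma adjusted p was 0.128 and the exact permutation p was 0.0222, again the smallest possible. Without FOXP2 clone 3 the value over the remaining clones was -1.10 and passed the threshold (limma adjusted p = 0.0397), while over all alternatives the adjusted p ran from 0.000672 to 1.00.

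Nfkbib encodes IkBb, an inhibitor that is resynthesised more slowly than IkBa after a stimulus. It had 20.9, 21.4, 22.6 and 21.8 RPKM in the FOXP2-CPED1 clones, 18.6, 32.0, 26.3 and 20.4 RPKM in the FOXP2 clones, 18.0 RPKM in the vector and 21.3 RPKM in the parental cells. No clone was below both controls, and 5 of 8 were above both. The log2 fold change was 0.14 for FOXP2-CPED1 and 0.27 for FOXP2 against control, and the limma 95% intervals ran from -0.30 to 0.59 and from -0.18 to 0.71. Both depended on single libraries: the FOXP2-CPED1 value was 0.26 without the parental cells and 0.025 without the vector, and the FOXP2 value was 0.13 without FOXP2 clone 2, 0.15 without the vector and -0.018 with quality weights.

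Nfkbie encodes IkBe, the least abundant of the classical inhibitors here, and was scarce. It had 2.12, 1.64, 2.15 and 1.69 RPKM in the FOXP2-CPED1 clones, 1.52, 1.57, 2.87 and 2.01 RPKM in the FOXP2 clones, 1.88 RPKM in the vector and 2.14 RPKM in the parental cells. The controls lay inside the range of the clones. Its promoter window holds a kB match, as do those of Nfkbia and Tnfaip3 printed above.

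The make-up of the classical IkB genes differed between clones and controls. Nfkbia supplied 61.6, 57.3, 59.4 and 48.7% of the summed Nfkbia, Nfkbib and Nfkbie RPKM in the FOXP2-CPED1 clones, and 60.01, 47.9, 62.9 and 55.5% in the FOXP2 clones, against 75.9% in the vector and 74.7% in the parental cells. All 8 clones were below both controls in this share. The sum of the 3 genes was 55.2 ± 7.04 RPKM in FOXP2-CPED1 clones, 60.9 ± 13.5 RPKM in FOXP2 clones (SD, n = 4 each) and 87.6 ± 7.26 RPKM in the control (SD, n = 2). The ratio of Nfkbia to Rela ran from 0.611 to 1.04 in FOXP2-CPED1 clones and from 0.595 to 1.08 in FOXP2 clones, against 1.23 in the vector and 1.31 in the parental cells. Nfkbia was the most abundant of the 10 members in both controls and in 1 of 8 clones. These ratios were built after the levels were known and carry no test.

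**Figure D2:**
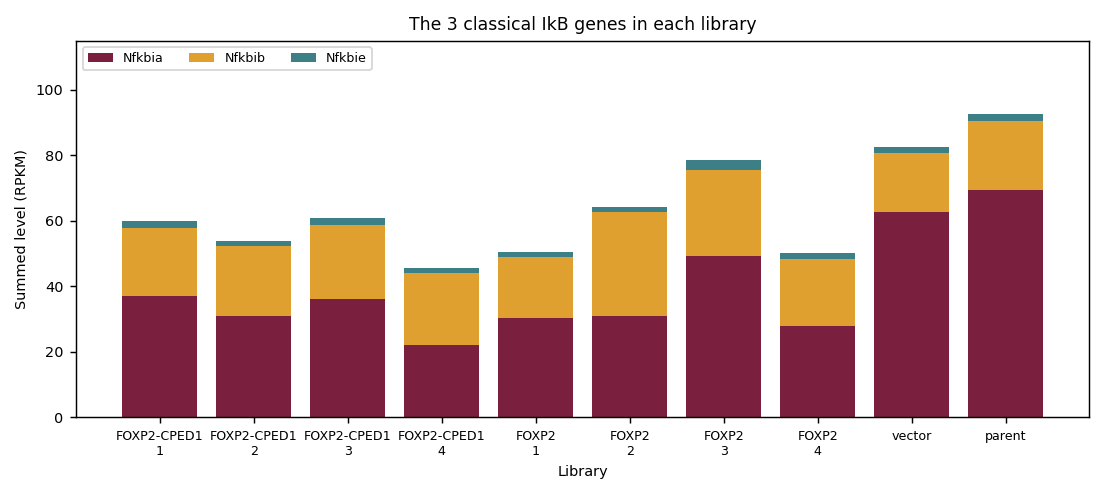
Summed level in RPKM (vertical axis, from 0) of Nfkbia, Nfkbib and Nfkbie in each library, stacked by gene. The Nfkbia part is shorter in all 8 clones than in the vector and parental cells, while the Nfkbib part lies between 18.0 and 32.0 RPKM throughout.

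Tnfaip3 encodes A20, a ubiquitin-editing enzyme that shuts down signalling above the IkB kinase. It had 1.94, 5.24, 2.41 and 1.26 RPKM in the FOXP2-CPED1 clones, 6.89, 0.810, 2.45 and 3.17 RPKM in the FOXP2 clones, 5.54 RPKM in the vector and 6.84 RPKM in the parental cells. FOXP2 clone 1 was above both controls and the other 7 clones below them, with an 8.51-fold range among FOXP2 clones. The log2 fold change was -1.06 ± 0.53 for FOXP2-CPED1 and -0.92 ± 0.53 for FOXP2 against control (limma adjusted p = 0.729 and 0.704). The FOXP2 value depended on single clones and on the weighting, being -0.56 without FOXP2 clone 2, -0.46 without the libraries with mitochondrial rows at 0 and -0.04 with quality weights.

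Bcl3 encodes an atypical IkB protein that works in the nucleus with p50 or p52 dimers. It had 16.9, 25.8, 25.1 and 14.0 RPKM in the FOXP2-CPED1 clones, 9.09, 8.89, 39.5 and 10.7 RPKM in the FOXP2 clones, 15.8 RPKM in the vector and 18.2 RPKM in the parental cells. FOXP2 clone 3 had the highest value, the other FOXP2 clones the 3 lowest, and the controls lay between. Means were 20.4 ± 5.90 RPKM in FOXP2-CPED1 clones, 17.1 ± 14.98 RPKM in FOXP2 clones (SD, n = 4 each) and 17.0 ± 1.65 RPKM in the control (SD, n = 2).

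Taking the members by comparison, 0 of 10 passed limma's threshold for FOXP2-CPED1 against control, where 0.35% of all rows did, and 4 had an unadjusted p under 0.05, where 7.28% of all rows did. Of the 10, 8 had a negative log2 fold change, against 49.7% of all rows, and 7 did not overlap the control and were lower (all 5 subunits, Nfkbia and Tnfaip3), against 13.3% of all rows. The members' median log2 fold change was -0.41, beside 0.00 over all rows tested. For FOXP2 against control, 0 of 10 passed, where 0.436% of all rows did, and 2 (Relb and Nfkbia) had an unadjusted p under 0.05, where 8.52% of all rows did. There, 9 of 10 had a negative log2 fold change, against 47.6% of all rows. 3 of 10 members (Relb, Rel and Nfkbia) lay wholly below the control, against 10.4% of all rows, and the median was -0.28, beside 0.02 over all rows. For all clones against control, 0 of 10 passed, where 0.537% of all rows did, and 4 had an unadjusted p under 0.05 (9.1% of all rows). A negative log2 fold change was found for 9 of 10, against 48.4% of all rows. The same 3 members lay wholly below the control, against 6.38% of all rows. The exact permutation p over all clones was 0.0222 for Relb, Rel and Nfkbia, 0.0444 for Rela, 0.0667 for Nfkb2 and 0.111 for Tnfaip3, unadjusted. These 3 comparisons share both control libraries, so their counts are not separate observations. Without the 3 libraries with mitochondrial rows at 0, the count of members past the threshold was 0 in each comparison.

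The count of 0 depended on how limma weighted the libraries. With quality weights, 3 members passed for FOXP2-CPED1 against control (Rela, Nfkb2 and Nfkbia), 4 for FOXP2 against control (Rela, Relb, Nfkb2 and Nfkbia) and 5 for all clones (these 4 and Rel), each with a negative log2 fold change. For Nfkbia against control the adjusted p with weights was 0.00474 for FOXP2-CPED1 and 0.000717 for FOXP2, each the lowest of its alternatives, of which the highest was 1.00. With the same weights, genes past the threshold over the whole table numbered 929 for FOXP2-CPED1 (45 without weights), 2095 for FOXP2 (56 without) and 1842 for all clones (69 without). The estimated weight was 6.62 for FOXP2 clone 1 and 0.196 for FOXP2 clone 2, the highest and lowest of the 10 libraries.

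**Figure D3:**
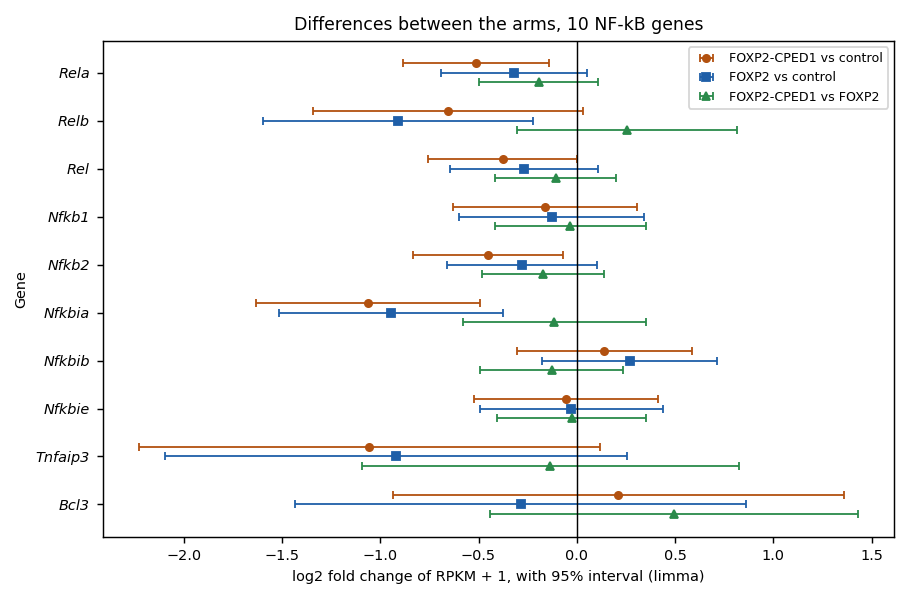
log2 fold change of RPKM + 1 (horizontal axis) of each gene (vertical axis) from limma, with 95% intervals, for FOXP2-CPED1 against control (circles), FOXP2 against control (squares) and FOXP2-CPED1 against FOXP2 (triangles). Both intervals against control lie below 0 for Nfkbia, and every interval between the constructs includes 0.

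Between the constructs no member separated. For FOXP2-CPED1 against FOXP2, 0 of 10 members passed limma's threshold, where 0% of all rows did, and 0 had an unadjusted p under 0.05, where 2.16% of all rows did. Of the 10, 8 had a negative log2 fold change, against 52.9% of all rows, with a median of -0.11, beside -0.01 over all rows. The difference for Nfkbia was -0.12 on the log2 scale with a 95% interval from -0.58 to 0.35, and that for Rela was -0.19, from -0.50 to 0.11. For Relb it was 0.26, from -0.31 to 0.82, and the widest intervals were those of Tnfaip3, from -1.10 to 0.82, and Bcl3, from -0.44 to 1.43. With 1 clone left out in turn, Rela ran from -0.28 to -0.09, Relb from 0.14 to 0.48 and Nfkbia from -0.20 to 0.063. These intervals leave room for a difference in either direction, and the missed threshold does not show that the constructs act alike.

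Taken clone by clone, 7 of 8 clones had most members below the control mean. In these 7, between 7 and 9 of the 10 members were below it, with median differences from -0.54 to -0.24 on the log2(RPKM + 1) scale. FOXP2 clone 3 had 5 members below and 5 above, with a median of -0.07. The Nfkbia difference of this clone was -0.41, while the other clones ran from -1.52 to -0.81. Its Bcl3 stood 1.17 above the control mean, where the other 3 FOXP2 clones stood between -0.86 and -0.61.

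**Figure D4:**
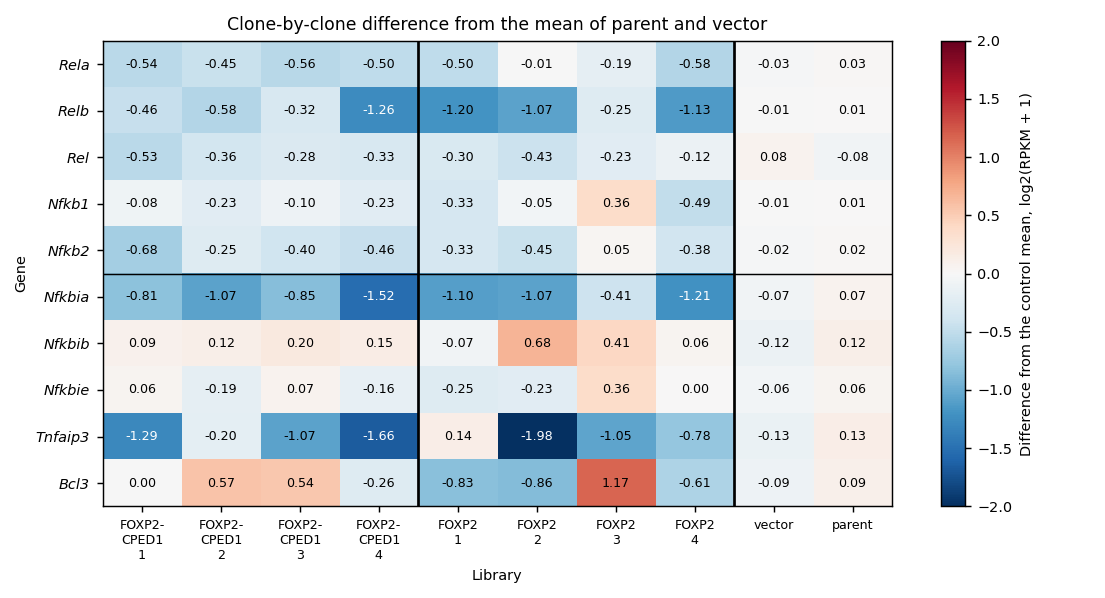
Difference of each library from the mean of the vector and parental cells, in log2(RPKM + 1), for each gene (rows) and library (columns), with blue for lower and red for higher values. Nfkbia, Relb and Rel are below 0 in all 8 clones, Nfkbib is near or above 0, and FOXP2 clone 3 mixes both signs.

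Members were then compared with each other over the 8 clones, leaving the controls out. Of 45 pairs, 36 had a positive Pearson r, with a median of 0.298, and 9 had an exact permutation p under 0.05 before adjustment. The same counts were not taken over pairs of other genes, so they cannot be read as particular to the family. After Benjamini-Hochberg adjustment over the 45 pairs, 1 passed by r and 0 passed by both r and rho. That pair was Relb and Nfkbia, with r = 0.847 (exact permutation p = 0.000322, adjusted p = 0.0145) and rho = 0.952 (exact permutation p = 0.00114, adjusted p = 0.0513) over 8 clones. Without the 2 clones farthest from the median of Relb, FOXP2-CPED1 clone 3 and FOXP2 clone 3, r was 0.757, and after centring on the mean of each construct it was 0.978.

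Rela and Nfkbib had the highest r of all pairs, 0.914 (exact permutation p = 0.0107, adjusted p = 0.160), with rho = 0.548 (exact permutation p = 0.171, adjusted p = 0.550). Without FOXP2 clones 2 and 3 it was -0.10, so the relation rests on those clones. Relb and Bcl3 had r = 0.874 (exact permutation p = 0.00940, adjusted p = 0.160) and rho = 0.714 (exact permutation p = 0.0576, adjusted p = 0.324), and r was 0.751 without the same 2 clones as for Relb and Nfkbia.

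**Figure D5:**
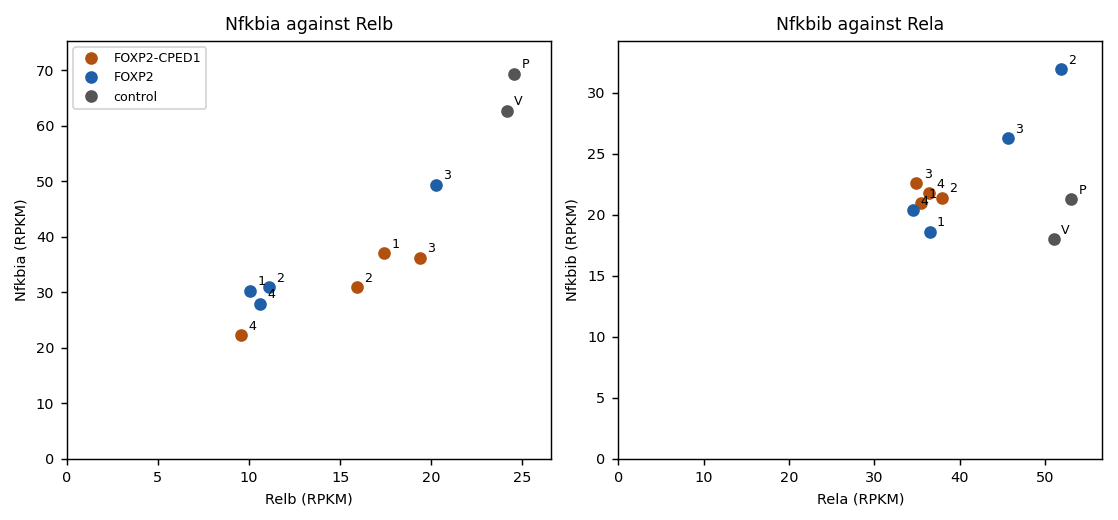
Nfkbia against Relb (left) and Nfkbib against Rela (right), both axes in RPKM from 0, with a point per library, numbers naming the clones, V the vector and P the parental cells. On the left the clones form a rising band with r = 0.847 on the log2 scale, and on the right FOXP2 clones 2 and 3 lie apart from the other 6 clones.

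Around the family, 36 genes of signalling to NF-kB were listed, from receptors and adaptors to the subunits of the IkB kinase and the ligase that acts on IkB, and 30 of them were tested. One of them, Irak2, which encodes a kinase-like adaptor of interleukin-1 and Toll-like receptors, was lower in both constructs. It had 7.51, 9.25, 8.02 and 10.5 RPKM in the FOXP2-CPED1 clones, 10.3, 6.71, 7.89 and 13.3 RPKM in the FOXP2 clones, 30.6 RPKM in the vector and 40.0 RPKM in the parental cells. Both constructs lay wholly below the control, as did 13.3% of all rows for FOXP2-CPED1 and 10.4% for FOXP2. It fell by 1.88 ± 0.25 on the log2 scale in FOXP2-CPED1 clones (limma adjusted p = 0.0151) and by 1.81 ± 0.25 in FOXP2 clones (limma adjusted p = 0.0167). Left with the vector alone as control, the limma adjusted p were 0.253 and 0.248, and with the parental cells alone 0.126 and 0.153. For FOXP2-CPED1 the call was also lost without clone 1, 2 or 3 (limma adjusted p = 0.0551, 0.0524 and 0.0511), and for FOXP2 in a fit of only those arms (limma adjusted p = 0.128). The other 29 did not pass, where 0.35% of all rows passed for FOXP2-CPED1 and 0.436% for FOXP2 against control. In each, 3 of the 30 had an unadjusted p under 0.05, 2 lower and 1 higher, beside 7.28% and 8.52% of all rows. The list's median was -0.03 for FOXP2-CPED1 and 0.00 for FOXP2 against control. Between the constructs the smallest p belonged to Tab3, a linker to the kinase TAK1, at -0.35 ± 0.14, and to Traf2, a receptor adaptor, at 0.24 ± 0.12, both with a limma adjusted p of 1.00.

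Other regulators of the pathway numbered 20, with 15 tested and 0 past limma's threshold in any comparison. Of the 15, 1 had an unadjusted p under 0.05 for FOXP2-CPED1 against control, where 7.28% of all rows did. For FOXP2 against control 2 did, beside 8.52% of all rows. Zc3h12a, which encodes an RNase that degrades inflammatory mRNAs, had the smallest p in both. It averaged 13.3 ± 3.26 RPKM in FOXP2-CPED1 clones, 13.3 ± 2.68 RPKM in FOXP2 clones (SD, n = 4 each) and 27.4 ± 0.160 RPKM in the control (SD, n = 2), with limma adjusted p of 0.136 and 0.122. After it came Tnip1, an A20 partner, at -0.28 ± 0.15 for FOXP2-CPED1, and N4bp1 at 0.38 ± 0.17 for FOXP2 against control, while between the constructs the smallest p belonged to the deubiquitinase gene Cyld, at -0.16 ± 0.12, and Pdlim2, at 0.15 ± 0.13. With quality weights Zc3h12a passed for both constructs and N4bp1 for FOXP2, as did 929 genes of the whole table for FOXP2-CPED1 and 2095 for FOXP2.

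Known target genes of NF-kB numbered 34, of which 21 had a row and 19 were tested, with 0 past limma's threshold in any comparison. In each construct against control 4 of the 19 had an unadjusted p under 0.05, beside 7.28% of all rows for FOXP2-CPED1 and 8.52% for FOXP2. Of these 4, 3 were lower and 1 higher for FOXP2-CPED1, and all 4 were lower for FOXP2. The 1 higher was Lcn2, which met the filter for testing only through clones, so it cannot be read against that share. The median log2 fold change of the 19 was -0.22 for FOXP2-CPED1 and -0.42 for FOXP2 against control, beside 0.00 and 0.02 over all rows. Gadd45b, a stress-response gene, averaged 25.7 ± 4.14 RPKM in FOXP2-CPED1 clones, 23.4 ± 7.31 RPKM in FOXP2 clones (SD, n = 4 each) and 59.5 ± 7.44 RPKM in the control (SD, n = 2), with limma adjusted p of 0.136 and 0.0806. Ptgs2, which encodes the prostaglandin synthase COX-2, had 20.7, 19.2, 15.6 and 62.6 RPKM in the FOXP2-CPED1 clones and 23.5, 62.3, 25.8 and 24.2 RPKM in the FOXP2 clones, against 86.7 RPKM in the vector and 78.6 RPKM in the parental cells (limma adjusted p = 0.410 for FOXP2-CPED1). Vcam1, an adhesion molecule gene, had 3.19, 11.4, 4.76 and 3.10 RPKM in the FOXP2-CPED1 clones and 3.97, 4.09, 3.56 and 4.95 RPKM in the FOXP2 clones, against 9.41 RPKM in the vector and 9.25 RPKM in the parental cells (limma adjusted p = 0.472 for FOXP2). FOXP2-CPED1 clone 2 thus lay above both controls.

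Some targets went the other way, and 2 are named after their values were seen. Lcn2, which encodes the iron-carrier-binding protein lipocalin 2, had 7.42, 1.46, 2.77 and 4.72 RPKM in the FOXP2-CPED1 clones, 1.37, 0.681, 11.6 and 2.99 RPKM in the FOXP2 clones, 0.370 RPKM in the vector and 0.310 RPKM in the parental cells. All 8 clones were above both controls, with a log2 fold change of 1.78 ± 0.72 for FOXP2-CPED1 and 1.49 ± 0.72 for FOXP2 (limma adjusted p = 0.605 and 0.626). Both controls were under 1 RPKM, so Lcn2 met the filter of at least 1 RPKM in at least 2 libraries only through clones. That filter favours such a separation, which is given as a description. Saa3, an acute-phase protein gene, had 253.1, 23.7, 68.0 and 16.8 RPKM in the FOXP2-CPED1 clones, 8.07, 11.6, 270.7 and 5.08 RPKM in the FOXP2 clones, 7.02 RPKM in the vector and 8.04 RPKM in the parental cells. The FOXP2-CPED1 clones lay above both controls, while the FOXP2 clones overlapped them (limma adjusted p = 0.760 and 0.869). The share of all rows lying wholly above the control is not given here, so neither separation can be read against it.

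The chemokine gene Ccl5 and the cytokine gene Il6 had the smallest p of the targets between the constructs. Ccl5 had 8.38, 1.53, 6.50 and 46.0 RPKM in the FOXP2-CPED1 clones, against 2.95, 2.62, 3.63 and 2.12 RPKM in the FOXP2 clones. The difference was 1.33 ± 0.69 on the log2 scale (limma adjusted p = 1.00), and it was 0.57 without FOXP2-CPED1 clone 4 and 1.97 without FOXP2-CPED1 clone 2. Il6 had 5.56, 4.11, 7.998 and 2.47 RPKM in the FOXP2-CPED1 clones, against 1.18, 2.75, 7.24 and 0.951 RPKM in the FOXP2 clones, a difference of 0.75 ± 0.44 that was 1.18 without FOXP2 clone 3, 0.48 without FOXP2 clone 4 and 0.21 without the libraries with mitochondrial rows at 0. Of the 19 targets tested, 11 had a negative log2 fold change for FOXP2-CPED1 and 13 for FOXP2 against control, beside 49.7% and 47.6% of all rows. With quality weights Gadd45b passed for both constructs, Ptgs2 for FOXP2-CPED1 and Vcam1 for FOXP2 against control. Over the whole table, 929 genes passed with these weights for FOXP2-CPED1 (45 without) and 2095 for FOXP2 (56 without). Passing there was therefore not particular to these targets.

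Of 8 fibroblast markers tested, 0 passed limma's threshold, and 5 were negative for FOXP2-CPED1 and 6 for FOXP2 against control, beside 49.7% and 47.6% of all rows. Col1a1 and Pdgfra were positive in both. The 8 had a median log2 fold change of -0.30 for FOXP2-CPED1 and -0.40 for FOXP2 against control, and their summed level ran from 6378 to 8967 RPKM in the FOXP2-CPED1 clones, from 5945 to 8326 RPKM in the FOXP2 clones and from 9009 to 9116 RPKM in the control. Vim, the gene of the filament protein vimentin, had the smallest p. It stood at -0.65 ± 0.24 for FOXP2-CPED1 and -0.79 ± 0.24 for FOXP2 against control (limma adjusted p = 0.521 and 0.299). Next came Col1a1 at 0.27 ± 0.14 for FOXP2-CPED1 and Thy1 at -0.63 ± 0.26 for FOXP2 against control (-0.41 without FOXP2 clone 4). Vim passed in both with quality weights, as did 929 genes of the whole table for FOXP2-CPED1 and 2095 for FOXP2. Lyz2 stood at -0.04 ± 0.30 for FOXP2-CPED1 and -0.37 ± 0.30 for FOXP2 against control, and Cdh1 at 0.24 ± 0.30 and 0.46 ± 0.30. The part of these markers in the members' values was not tested.

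The genes whose levels over all 10 libraries most resembled 2 of the inhibitors, out of 8886 compared, are given as a description. For Nfkbia they were Mrgprf (r = 0.955), Clip2 (0.943), Zswim4 (0.943), Rnf34 (0.940) and Rfxank (0.938), and for Tnfaip3 they were Abhd14b (0.957), Ell2 (0.951), Cdon (0.933), Rnf185 (0.932) and Spaca6 (0.929). Mrgprf, for example, ran from 25.6 to 53.3 RPKM in the clones, against 75.9 RPKM in the vector and 75.8 RPKM in the parental cells, the same separation as Nfkbia. Cdon ran from 2.10 to 11.8 RPKM in the clones, against 12.8 RPKM in the vector and 11.03 RPKM in the parental cells. These correlations mix clones and controls and are taken over libraries that share their cell line and processing.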

How the data were processed

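RNA of NIH3T3 cells was sequenced in 10 libraries. The authors deposited 1 table of RPKM values (reads scaled by transcript length and library size) covering all 10 libraries, per the file headers. The processing was done with HISAT2 and StringTie on mm9, per the submitters' processing notes; the sources used here give no versions, annotation, strand setting or filters. Of 18430 rows, 3581 name no gene (3.37 to 4.54% of a library's total RPKM) and were left out. An exact 0 in such a table can be a failed estimate.

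Values were transformed as log2(RPKM + 1), so fold changes of low genes are understated. Rows with at least 1 RPKM in at least 2 libraries (12842) were tested with limma 3.58.1 in R 4.3.3, in 1 model with 3 arms, empirical Bayes moderation with a trend, two-sided tests and Benjamini-Hochberg adjustment. Single members were also tested with two-sided exact permutation tests of the mean difference, whose smallest p is 0.0667 for 1 construct against control, 0.0222 for all clones against control and 0.0286 between constructs, and pairs of members with exact permutation of the pairings. Errors are SDs between libraries or model SEs, and p-values cover only the spread among the cultures sequenced. The scripts were tested on simulated data.

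Members and gene lists were chosen with earlier results of these data known. All 10 members are named. From each further list the genes past the threshold are named, up to 4 by smallest p, or the 2 with the smallest p where none passes, and for Nfkbia and Tnfaip3 the 5 genes with the highest Pearson r and a mean of at least 2 RPKM, leaving out rows that join genes, small RNAs and clone names. Alternatives were a pseudocount of 0.1, no filter, quantile normalization, median ratios, quality weights, only the arms compared, the clone number as a block, each library left out, and the 3 libraries with mitochondrial rows at 0 left out.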

Additional observations from a re-analysis of the deposited data

Results flagged for a closer look

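Within the 4 FOXP2 clones, clone 3 stood apart for 3 members. The gap between it and the next clone, as a share of the whole range of the 4 clones, was 0.898 for Relb, 0.864 for Nfkbia and 0.939 for Bcl3, above the 95% critical value of Dixon's test for 4 samples. In all 3 cases clone 3 was the highest. The measure was applied to 20 groups, the 10 members in each construct, and chance flags about 1 group in 20 where groups are independent. The 3 flags fall on the same clone and are not separate observations.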

How the results depend on the processing

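Depth in reads is unknown, the control holds 2 cultures, and each clone is 1 library, which limits the precision of every value above. Genes past the threshold numbered 45 for FOXP2-CPED1 against control, 56 for FOXP2 against control, 69 for all clones against control and 0 between constructs. With a pseudocount of 0.1 the first 2 counts were 28 and 37, and with quality weights the 4 counts were 929, 2095, 1842 and 4. For FOXP2 against control, the fit of only those arms gave 9 and the fit without the 3 libraries with mitochondrial rows at 0 gave 23. With each library left out the counts ran from 0 to 57, 2 to 64, 2 to 82 and 0 to 1, and the counts against control were 0, 2 and 2 without the parental library and 2, 3 and 3 without the vector. Counts for FOXP2-CPED1 were 13, 14 and 17 without its clones 1, 2 and 3. Counts for FOXP2 were 22 and 25 without its clones 1 and 4, and 33 and 29 without FOXP2-CPED1 clones 1 and 3, without which all clones gave 43 and 42. Between constructs 1 gene passed without FOXP2-CPED1 clone 2. Members past the threshold were 3, 4 and 5 with quality weights, and 0 to 1 for all clones with a library left out (1, Nfkbia, without FOXP2 clone 3). The cause was not tested.

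Of 280 values of members under other settings, 255 kept their direction and side of the threshold, 12 passed it newly and 13 changed sign, and of 400 with a library left out 380, 1 and 19 did. With quantile normalization Nfkbie was 0.044 for FOXP2 (-0.028 as deposited) and 0.017 for all clones (-0.042) against control. With quality weights Nfkbib was -0.018 for FOXP2 against control, Lyz2 was 0.14 for FOXP2-CPED1 against control, and between constructs Nfkb1 was 0.17, Nfkbia 0.14, Nfkbib 0.17, Nfkbie 0.20 and Pdlim2 -0.0037. Without the libraries with mitochondrial rows at 0, Nfkb1 was 0.015 (-0.13 with all libraries), Nfkbie 0.056 (-0.028) and Bcl3 0.17 (-0.28) for FOXP2 against control, and Bcl3 was 0.14 (-0.037) for all clones. Between constructs Relb was -0.043 (0.26), Bcl3 -0.067 (0.50), Thy1 -0.095 (0.17), Lyz2 -0.0075 (0.33) and Cdh1 0.14 (-0.22). With a library left out, Nfkbie ran from -0.12 to 0.0063 for FOXP2-CPED1 against control, between -0.16 and 0.047 for FOXP2 and between -0.11 and 0.020 for all clones, Bcl3 from -0.28 to 0.059 for all clones, and Lyz2 from -0.21 to 0.17 for FOXP2-CPED1. Between constructs Nfkb1 ran from -0.16 to 0.13, Nfkbia from -0.20 to 0.063, Nfkbib from -0.24 to 0.0089, Nfkbie from -0.10 to 0.10, Tnfaip3 from -0.49 to 0.22 and Thy1 from -0.052 to 0.31.

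Clones of the same number did not deviate together as a rule (correlations of -0.04, -0.24, 0.28 and 0.17), so the numbers were not taken to pair them. Only FOXP2-CPED1 clone 3 was most like the FOXP2 clone of its own number. No reference value was computed for these correlations. With the clone number as a replicate block, 0 genes and 0 members passed between constructs, and 264 genes had an unadjusted p under 0.05, against 278 without it.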
